A study of Mus musculus with 7 samples.

Results

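The genes described here are 7 that mark the early, granule-building stage of neutrophil development: Elane, Mpo, Prtn3, Ctsg, Ms4a3, Fcnb and Prss57. They were taken by name from 49671 genes in a count table of mouse femur RNA, and all 7 had reads in every library. Messenger RNA was sequenced from whole crushed femurs of wild type mice, with 4 libraries from bones collected 3 days after brain trauma (TBI) and 3 from control mice left uninjured. The trauma was given as a controlled cortical impact, a standard model in which the brain surface is struck mechanically. Strain, age, sex and any surgery of the controls are not given in the labels used here, nor is it stated that each library is a separate mouse. The p-values therefore cover the spread among these libraries, which may be technical. The comparison asks what a brain injury does to gene expression in a distant bone.

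Neutrophils are made in the bone marrow inside the femur. At the promyelocyte stage the cells fill their primary (azurophil) granules with proteases and a peroxidase, and the mRNAs for these proteins largely disappear as the cells mature, while the granules and their proteins stay. Secondary granule and maturity genes follow later. The abundance of these 7 mRNAs in marrow therefore follows immature granulocytes more than the mature cells that circulate.

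Total counts were 20470241 to 21783534 in TBI libraries and 15461528 to 20675655 in controls. TBI library 3 had the lowest mean of the pan-leukocyte marker list, 5.90 log2 CPM (CPM: read counts scaled for library size). The other TBI libraries had 6.64 to 7.52 and the controls 6.31 to 6.79. The level of every member was also lowest in TBI 3 of all 7 libraries. The member fold changes are therefore also given without TBI 3, a choice made partly on the member values themselves. The 8 genes of the skeletal muscle list took 2.02% to 8.72% of counts in TBI libraries and 1.70% to 5.35% in controls, so tissue attached to the bone varied too. The labelled tissue was visible in its markers: Col1a1, the main collagen of bone, had 4946 to 6733 CPM in TBI libraries and 7203 to 12842 CPM in controls. In bulk RNA, fewer cells of a type and less RNA per cell cannot be told apart.

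The mRNAs of all 7 genes were most abundant in TBI libraries 1 and 2, intermediate in TBI 4 and least abundant in TBI 3. Estimated differences between the groups were close to a doubling on average, with log2 fold changes between 0.83 (Prss57) and 1.12 (Fcnb) and a median of 0.93. None passed the threshold of an adjusted p of 0.05 in edgeR's quasi-likelihood test over 17144 genes. For each member, 3 of the 4 TBI libraries lay above every control and the remaining one, TBI 3, lay below every control.

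Elane encodes neutrophil elastase, a serine protease that digests matrix and bacterial proteins (ENSMUSG00000020125, protein coding, GRCm38 chromosome 10, 79886247 to 79888215, plus strand). Prtn3 encodes proteinase 3, a close relative of elastase (ENSMUSG00000057729, protein coding, chromosome 10, 79874476 to 79883174, plus strand). The pair lie next to each other. Mpo encodes myeloperoxidase, which turns hydrogen peroxide and chloride into hypochlorous acid (ENSMUSG00000009350, protein coding, chromosome 11, 87793581 to 87804413, plus strand). The promoter windows of these 3 genes, which have the highest counts of the 7, are shown because their levels followed each other from library to library. Each window runs from 250 bases before to 50 after the gene start in RefSeq (GRCm38.p6), which can differ from the start in the gene annotation, and capitals mark matches to GAGGAA, the core letters of PU.1 sites, and to AACGG, those of MYB sites.
Elane, chr10:79886062-79886361, plus strand: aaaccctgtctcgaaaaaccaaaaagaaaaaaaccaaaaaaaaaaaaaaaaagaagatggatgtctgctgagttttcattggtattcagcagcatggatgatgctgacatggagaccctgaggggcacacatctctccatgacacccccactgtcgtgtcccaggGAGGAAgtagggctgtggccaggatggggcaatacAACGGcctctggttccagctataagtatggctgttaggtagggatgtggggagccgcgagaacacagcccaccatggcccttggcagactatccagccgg
Prtn3, chr10:79879417-79879716, plus strand: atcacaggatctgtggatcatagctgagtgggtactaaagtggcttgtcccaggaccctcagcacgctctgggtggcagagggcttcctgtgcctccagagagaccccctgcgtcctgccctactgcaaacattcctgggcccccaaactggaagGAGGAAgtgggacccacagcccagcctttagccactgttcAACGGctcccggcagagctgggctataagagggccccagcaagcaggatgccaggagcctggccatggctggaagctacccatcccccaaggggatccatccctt
Mpo, chr11:87793534-87793833, plus strand: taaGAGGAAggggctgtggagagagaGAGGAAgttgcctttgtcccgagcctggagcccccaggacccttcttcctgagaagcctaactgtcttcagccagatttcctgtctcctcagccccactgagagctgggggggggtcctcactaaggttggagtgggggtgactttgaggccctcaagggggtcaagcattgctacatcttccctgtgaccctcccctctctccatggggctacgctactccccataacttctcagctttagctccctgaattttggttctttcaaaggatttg

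Elane and Prtn3 carry the same pair of letters in the same order, GAGGAA at −85 and AACGG at −50 from the gene start in Elane, and at −95 and −55 in Prtn3. Mpo has GAGGAA at −247 and −224 and no AACGG in its window. Of the 7 genes, 6 had a window in the table; Prss57 was not matched. Letters were searched on both strands, and TTGCNNAA (C/EBP) and TGTGGT (RUNX) were searched as well. GAGGAA stood in 5 of the 6 windows, those of Elane, Mpo, Prtn3, Ctsg and Ms4a3, against 28.3% of all 32851 windows of that length. AACGG stood in 17.4% of all windows, TTGCNNAA in 10.8% and TGTGGT in 16.8%. Fcnb held TTGCNNAA at −235 and at −123. Ms4a3 held it once, at 42, directly after GAGGAA at 36, and Ctsg held TGTGGT once, at −79 on the minus strand. A match of letters is a description and not evidence that a factor binds there.

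Elane measured 257.9, 235.0, 63.2 and 134.9 CPM in TBI 1 to 4, against 120.1, 77.2 and 72.0 CPM in controls 1 to 3. Its mean was 172.7 ± 90.5 CPM after TBI (SD, n = 4) and 89.8 ± 26.4 CPM in controls (SD, n = 3), a log2 fold change of 0.94 with a 95% interval from −0.07 to 1.95. TBI 1 and TBI 2 were about double the highest control, TBI 4 lay just above it, and the groups overlapped through TBI 3.

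Prtn3 followed with 256.2, 238.9, 66.5 and 151.0 CPM in TBI 1 to 4, against 114.5, 90.5 and 75.5 CPM in controls. It had the narrowest interval of the 7, with a log2 fold change of 0.93 and 95% limits of −0.01 and 1.87. Its unadjusted p of 0.0519 in edgeR was the smallest of the members, and its adjusted p was 0.681. On the opposite strand, the 5′ end of Plppr3 overlaps the annotated Prtn3 gene by 159 bp, and whether the counting used strand is not given. Plppr3 averaged 21.6 CPM after TBI and 15.7 CPM in controls.

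Mpo had the highest counts of the members. It measured 755.5, 647.2, 181.8 and 381.5 CPM in TBI 1 to 4, against 340.8, 252.0 and 213.3 CPM in controls. The fold change was 0.87 on the log2 scale (SE 0.44; adjusted p = 0.720 in edgeR). TBI 4 exceeded control 1 by little, and TBI 3 was again below all controls. The antisense gene Gm11505, which lies within Mpo, had 72 counts over all libraries, against 58826 for Mpo.

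**Figure D1:**
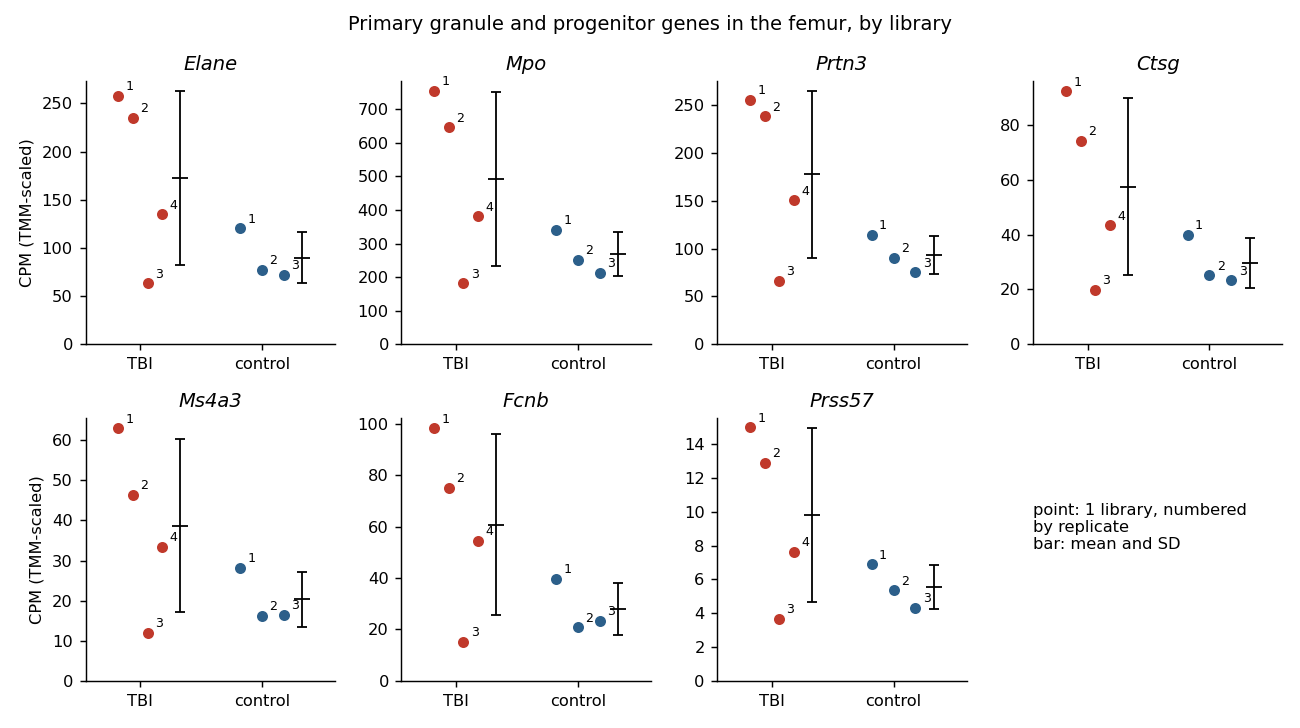
Each panel plots the TMM-scaled CPM of 1 gene on a linear axis, with TBI libraries left (red) and controls right (blue); points are libraries numbered by replicate, and bars give the mean and SD. In every panel TBI 1, 2 and 4 lie above the 3 controls and TBI 3 lies below them.

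Ctsg encodes cathepsin G, a chymotrypsin-like protease of the same granules (ENSMUSG00000040314, chromosome 14, 56099881 to 56102574, minus strand). It stood at 92.5, 74.4, 19.95 and 43.5 CPM in TBI 1 to 4, against 40.03, 25.2 and 23.5 CPM in controls. Its log2 fold change was 0.96 ± 0.46 (SE). Here TBI 4 and control 1 were 43.5 and 40.03 CPM, closer to each other than either was to its group's next library.

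Ms4a3 encodes a membrane protein that in mice marks granulocyte-monocyte progenitors (ENSMUSG00000024681, chromosome 19, 11629496 to 11640851, minus strand). It measured 63.0, 46.4, 12.0 and 33.5 CPM in TBI 1 to 4, against 28.2, 16.2 and 16.5 CPM in controls, for a log2 fold change of 0.93 ± 0.48 (SE). TBI 1 held 5.26 times the level of TBI 3.

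Fcnb encodes ficolin B, a lectin that binds sugars on microbes and can start complement (ENSMUSG00000026835, chromosome 2, 28076378 to 28084885, minus strand). Its values were 98.2, 75.1, 15.2 and 54.5 CPM in TBI 1 to 4, against 39.8, 20.8 and 23.4 CPM in controls. Fcnb varied most, both within the TBI libraries, where the highest was 6.45 times the lowest, and within the controls, where that ratio was 1.91. Its log2 fold change was the largest of the 7 and also the least precise, 1.12 with 95% limits of −0.10 and 2.33.

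Prss57 encodes a granule serine protease that cuts after arginine (ENSMUSG00000020323, chromosome 10, 79781474 to 79790961, minus strand). It was the least abundant, at 14.99, 12.9, 3.69 and 7.64 CPM in TBI 1 to 4, against 6.91, 5.36 and 4.33 CPM in controls, with a log2 fold change of 0.83 ± 0.44 (SE). Its lowest count, 68 reads in TBI 3, has an exact 95% Poisson interval of 52.8 to 86.2 reads, which covers counting error only. The gene overlaps Fstl3 on the opposite strand by 1157 bp, and reads of the pair cannot be told apart if strand was not used. Fstl3 differed in direction, at 3.62 CPM after TBI and 4.32 CPM in controls (log2 fold change −0.25 ± 0.20).

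All 7 members had a higher estimate in the TBI group, and so did 54.4% of all genes tested. Every member was at least 1.5-fold higher in the estimate, a size reached by 6.93% of tested genes. However, 0 of 7 passed the adjusted threshold (0% of all genes) and 0 of 7 had an unadjusted p under 0.05 in edgeR (7.34% of all genes). In DESeq2, 0 of 7 passed the adjusted threshold (0.768% of the genes given an adjusted p) and 6 of 7 had an unadjusted p under 0.05 (8.18% of those genes). Without a filter on low counts, edgeR gave 6 of 7 at an unadjusted p under 0.05 (5.69% of all genes in that fit). With quality weights, limma-voom gave 7 of 7 (13.2%), and none passed the adjusted threshold in either. Plain limma-voom gave 0 of 7 (1146 of 17144 genes). In edgeR, RLE scaling and upper quartile scaling also gave 0 of 7 (1261 and 1336 of 17144 genes). A filter of at least 1 CPM in 3 libraries gave 0 of 7 as well (1163 of 15458 genes). Also 0 of 7 had every TBI library above every control, which held for 2.66% of all genes. The members measure largely the same difference 7 times, so their counts are not independent observations.

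**Figure D2:**
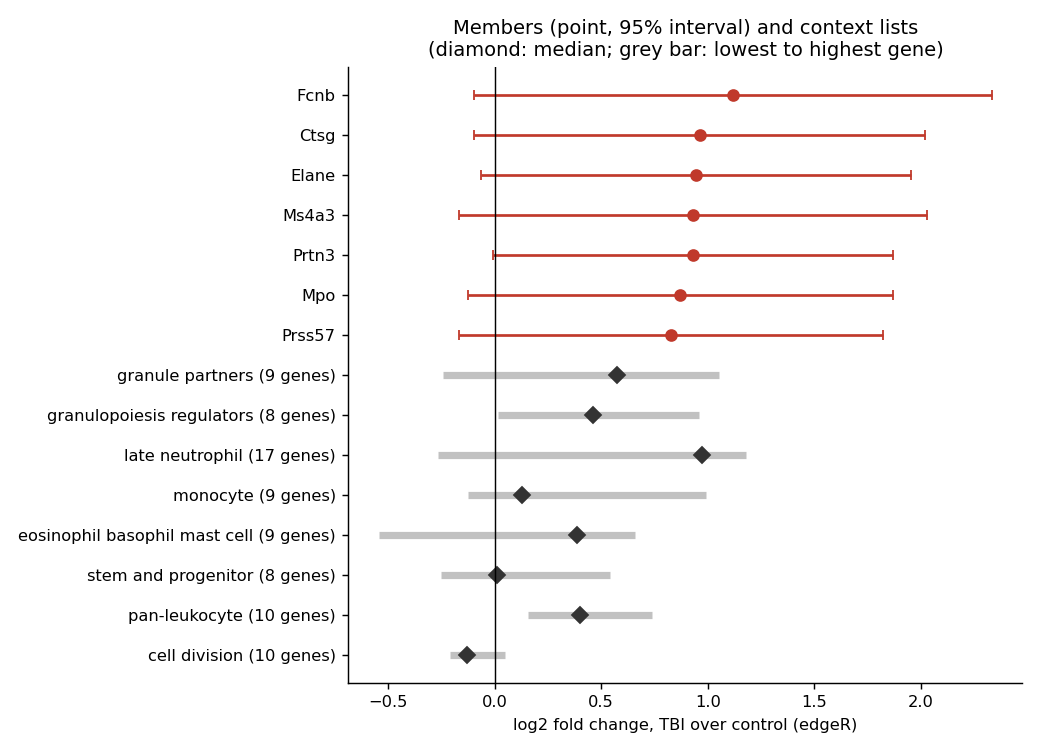
The x axis is the log2 fold change of TBI over control from edgeR; red points are the 7 members with 95% intervals, diamonds are medians of context lists and grey bars run from the lowest to the highest gene of a list. The member intervals all reach below 0, and the member estimates of 0.83 to 1.12 lie near the late neutrophil median of 0.97.

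The estimates moved with TBI 3, TBI 1 and control 1. Without TBI 3, the median of the 7 log2 fold changes was 1.22 and 7 of 7 had an unadjusted p under 0.05 in edgeR (8.98% of all genes). All adjusted p-values stayed above the threshold, the lowest being 0.366. TBI 3 was the lowest library for every member, so higher estimates without it follow from that choice. Without TBI 1, the highest library, the median was 0.64 and no member had an unadjusted p under 0.05 (10.2% of all genes). Ms4a3 moved by over 1.5 times in that setting, to 0.60. Without control 1, the highest control, the median was 1.21, and again no member had an unadjusted p under 0.05 (7.02% of all genes). With the skeletal muscle list mean as a covariate in edgeR the median was 1.19. There 7 of 7 had an unadjusted p under 0.05 (16.3% of all genes). Adjusted p-values in that edgeR fit ran from 0.0692 (Ctsg and Elane) to 0.103 (Fcnb). The muscle covariate also holds its own difference between the groups. Its mean was 12.19 ± 1.13 log2 CPM after TBI (SD, n = 4) and 11.59 ± 0.87 in controls (SD, n = 3).

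In the authors' deposited table of normalized log2 values, Elane was at 12.32, 12.21, 10.34 and 11.43 in TBI 1 to 4, and 11.23, 10.63 and 10.53 in controls 1 to 3. Over the 7 members, the TBI mean minus the control mean in the authors' deposited table ran from 0.56 (Prss57) to 0.86 (Fcnb) on the log2 scale.

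Per kilobase of annotated exon, Elane was the most abundant member and Prss57 the least, and the order Elane, Mpo, Prtn3, Ctsg, Fcnb, Ms4a3, Prss57 was the same in 7 of 7 libraries. On this length-scaled level, Elane averaged 175.5 ± 92.0 CPM per kb after TBI (SD, n = 4) and 91.3 ± 26.8 in controls (SD, n = 3). Mpo, the next in order, averaged 143.5 ± 75.8 after TBI and 78.5 ± 19.1 in controls, within the spread of Elane. Prtn3 stood at 102.9 ± 50.5 CPM per kb after TBI and 54.0 ± 11.3 in controls. A step followed to Ctsg, at 55.8 ± 31.2 CPM per kb after TBI and 28.6 ± 8.81 in controls, and in controls these 2 ranges of mean ± SD did not meet. Fcnb averaged 45.4 ± 26.3 after TBI and 20.9 ± 7.67 in controls, and Ms4a3 20.6 ± 11.4 after TBI and 10.8 ± 3.62 in controls. Prss57 was at 3.45 ± 1.80 CPM per kb after TBI and 1.95 ± 0.46 in controls. Exon length here is the union over all annotated transcripts, so a gene with rarely used exons is set too low.

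The members kept nearly constant proportions to each other while their common level changed. Over the 7 libraries, Elane varied over a range of 2.03 on the log2 scale, but over 0.16 once the mean of the 7 members in each library was subtracted. For Ctsg these ranges were 2.21 and 0.16, and for Mpo 2.05 and 0.24. Fcnb departed most, with 2.68 and 0.58: relative to the member mean it stood at −0.82 in TBI 3, −0.80 in control 2 and −0.25 in TBI 4. Averaged by group, relative Fcnb was −0.46 after TBI and −0.59 in controls, a difference smaller than its spread among libraries.

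Later neutrophil genes shared this profile. Of the 17 late neutrophil genes, 16 were higher after TBI in the estimate. The list's median on the log2 fold scale was 0.97, beside 0.03 over all genes tested. None passed the adjusted threshold, and Ly6g, a surface marker of mature neutrophils, had an unadjusted p under 0.05 (log2 fold change 1.16 ± 0.50). The collagenase Mmp8 was at 1.18 ± 0.55 and the lectin Chil3 at 1.09 ± 0.52. Mmp9, which other bone cells also make, was the exception at −0.27 ± 0.26. The mean of the members minus the mean of the late list, in log2 CPM, was −1.51, −1.01, −1.24 and −1.54 in TBI 1 to 4, against −1.40, −1.32 and −1.47 in controls. Both the highest and the lowest of these differences were in the TBI group. The group means, −1.33 ± 0.25 after TBI (SD, n = 4) and −1.39 ± 0.08 in controls (SD, n = 3), differed by less than the spread between libraries. TBI 2 had relatively more early than late neutrophil mRNA than any other library.

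The members and the late neutrophil genes were also set against leukocyte genes in general. The pan-leukocyte list (Ptprc, which encodes CD45, and 9 other genes) had 10 of 10 estimates higher and none called, and its median was 0.40 on the log2 scale. The member mean minus the pan-leukocyte mean was −0.57, −0.39, −1.14 and −0.62 log2 CPM in TBI 1 to 4, against −1.01, −1.14 and −1.24 in controls. TBI 1, 2 and 4 lay above all controls, while TBI 3 lay among them. The late neutrophil mean minus the pan-leukocyte mean was 0.94, 0.62, 0.09 and 0.92 in TBI 1 to 4, against 0.38, 0.18 and 0.23 in controls, so the late list also had TBI 1, 2 and 4 above all controls. For the members, the group means were −0.68 ± 0.32 after TBI (SD, n = 4) and −1.13 ± 0.11 in controls (SD, n = 3). With the pan-leukocyte mean as a covariate in edgeR, the median of the member log2 fold changes was 0.34, and 4 of 7 had an unadjusted p under 0.05 (17.2% of all genes) with none past the adjusted threshold. Prtn3 was then at 0.39 (adjusted p = 0.243). This covariate fit also holds the list's own difference between the groups.

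**Figure D3:**
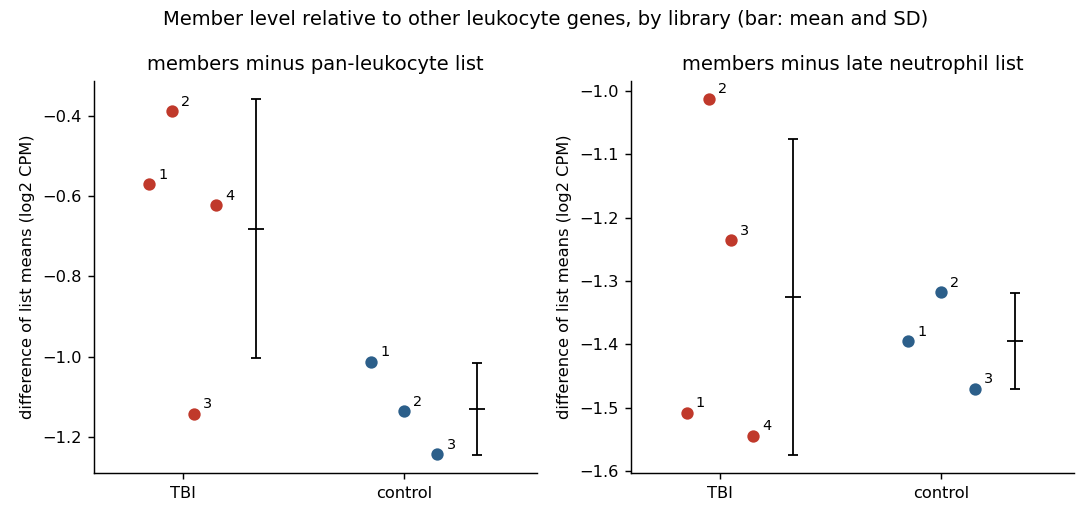
The y axes give, for each library, the mean log2 CPM of the 7 members minus that of the pan-leukocyte list (left panel) or of the late neutrophil list (right panel), with TBI left of control and bars for mean and SD. Relative to pan-leukocyte genes TBI 1, 2 and 4 (−0.62 to −0.39) lie above the controls (−1.24 to −1.01); relative to late neutrophil genes the groups overlap.

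The proteins that fold, activate, pack or restrain the granule enzymes are encoded by genes that behaved unevenly. Of 9 tested partner genes, 7 had a higher estimate after TBI and none passed the adjusted threshold; the median log2 fold change was 0.57. Ctsc encodes the dipeptidyl peptidase that removes the activating propeptide of elastase, proteinase 3 and cathepsin G. It measured 77.8, 58.6, 50.6 and 51.6 CPM in TBI 1 to 4, against 41.0, 41.2 and 39.6 CPM in controls, so every TBI library, TBI 3 included, lay above every control. Its log2 fold change was 0.56 ± 0.16 (adjusted p = 0.514 in edgeR). Srgn, the proteoglycan that holds granule proteins, was at 0.67 ± 0.28, and Serpinb1a, an intracellular inhibitor of these proteases, at 0.87 ± 0.38. Calr and Canx encode chaperones that most cell types make and that fold the Mpo precursor. They were at −0.01 ± 0.16 and 0.04 ± 0.15. Bpi was not tested, with 0 to 3 counts per library.

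Among transcription factors and receptors of granulocyte development, 8 of 8 estimates were above 0 and none was called; their median was 0.46 in log2 units. Cebpe, a factor needed for the transition from primary to secondary granules, had 33.5, 28.4, 6.67 and 18.5 CPM in TBI 1 to 4, against 16.5, 9.02 and 8.03 CPM in controls, the same order of libraries as Elane. Gfi1, a repressor required for neutrophil formation, was at 0.86 ± 0.44 and showed that order as well. Cebpa, which starts the granulocyte program, did not: it had 37.7, 24.7, 36.9 and 28.2 CPM in TBI 1 to 4, against 23.3, 21.2 and 23.4 CPM in controls. Its log2 fold change was 0.50 ± 0.17 (adjusted p = 0.592 in edgeR), with every TBI library above every control. Cebpa is also expressed by fat cells, and Cfd, an abundant fat cell gene, was highest in TBI 3; its part in the Cebpa values was not tested. Myb, active in immature blood cells, stood at 0.02 ± 0.30, and Csf3r, the receptor for granulocyte colony-stimulating factor, at 0.74 ± 0.52.

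Genes of earlier progenitors differed from one another in their library values, and genes of dividing cells had small estimates. In the stem and progenitor list 5 of 8 estimates were higher, and the median was 0.01 in log2 units. Its mean was 3.97 to 4.11 log2 CPM in TBI libraries and 3.96 to 4.05 in controls, but this mean covers genes that ran in opposite ways. Flt3, a growth factor receptor of early progenitors, had 18.6, 11.2, 4.93 and 7.75 CPM in TBI 1 to 4, against 9.30, 6.56 and 6.10 CPM in controls, highest in TBI 1 and lowest in TBI 3 like the members. Procr, a surface receptor of stem cells and endothelium, had 3.82, 5.41, 12.2 and 8.06 CPM in TBI 1 to 4, against 5.64, 7.31 and 9.07 CPM in controls, highest in TBI 3. Kit, the stem cell factor receptor, was at −0.01 ± 0.20, and the 3 genes with the smallest p were Flt3 (0.54 ± 0.41), Hlf (−0.25 ± 0.25) and Mecom (0.36 ± 0.36). The cell division list had a median of −0.13 with 9 of 10 estimates lower, led by Birc5 (−0.21 ± 0.14), Aurkb (−0.19 ± 0.15) and Mki67 (−0.21 ± 0.20). None of the genes on either list had an unadjusted p under 0.05.

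**Figure D4:**
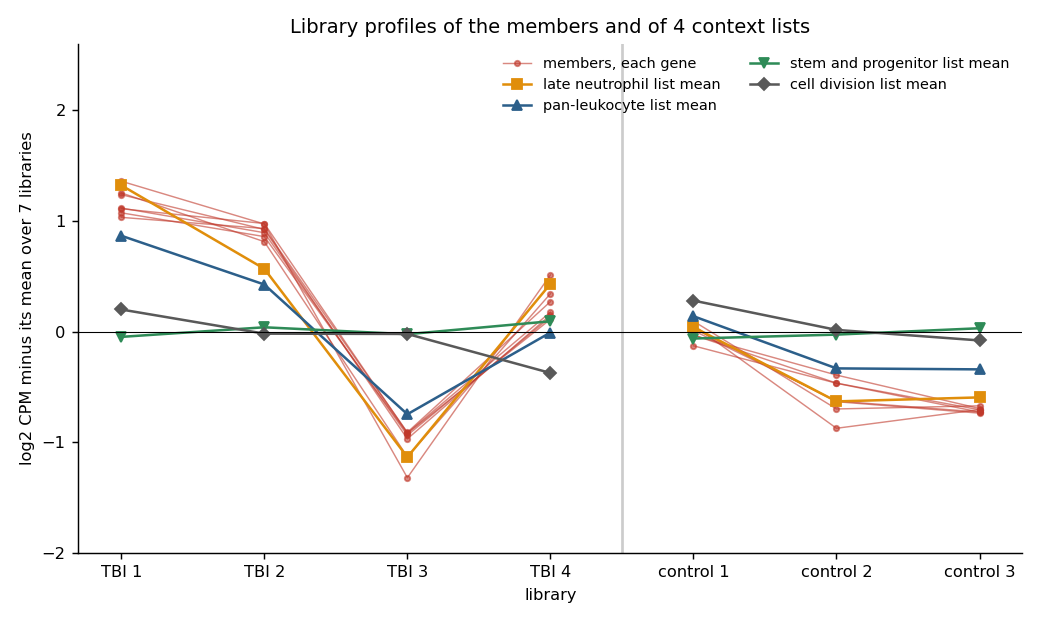
For each library on the x axis, the y axis gives log2 CPM minus its mean over the 7 libraries, for each member (thin red lines) and for the means of 4 lists; lines only join values of a gene or list within a group. The members and the late neutrophil list are highest in TBI 1 and lowest in TBI 3, the pan-leukocyte list spans less, and the stem and progenitor list has means of 3.96 to 4.11 log2 CPM, in which genes that run in opposite ways, such as Flt3 and Procr, offset each other.

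Some members are also made by monocyte precursors and, at lower level, by basophils and mast cells. Of 9 monocyte genes, 7 had a higher estimate with a median of 0.13. Ly6c2, a marker of inflammatory monocytes, was at 0.99 ± 0.44 and the chemokine receptor Ccr2 at 0.59 ± 0.25, whereas Csf1r, the macrophage growth factor receptor, was at −0.12 ± 0.22. F13a1, a clotting factor subunit of monocytes, was at 0.33 ± 0.23. The eosinophil, basophil and mast cell list had a median of 0.39 with 6 of 9 higher, and its mean ran from 1.08 to 2.70 log2 CPM in TBI libraries and from 1.49 to 2.01 in controls. The smallest p there were those of Siglecf (0.66 ± 0.31), Il5ra (−0.54 ± 0.41) and Mcpt8 (0.51 ± 0.52). The part of these cells in the member values was not tested.

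Elane, Prtn3 and Prss57 lie within 100 kb of each other on chromosome 10, among neighbours with a range of values. Of 11 other tested genes lying at least partly within 100 kb of the start of Elane, 10 were higher in the estimate (median 0.19, log2). Cfd, which encodes the complement protease adipsin and starts 4.61 kb from Elane, had a similar fold change (0.92 ± 0.53) but the opposite pattern within the TBI group. It measured 59.1, 137.1, 398.8 and 212.2 CPM in TBI 1 to 4, against 85.0, 108.9 and 127.0 CPM in controls, so it was highest where Elane was lowest. R3hdm4, at 0.29 ± 0.12, was the only gene in that window with an unadjusted p under 0.05 (adjusted p = 0.658). The rest were Arid3a (0.54 ± 0.36), Plppr3 (0.46 ± 0.29), Kiss1r (0.45 ± 0.47), E130317F20Rik (0.19 ± 0.27), Med16 (0.15 ± 0.11), Wdr18 (0.14 ± 0.10), Palm (0.12 ± 0.18), Ptbp1 (0.04 ± 0.19) and Tmem259 (−0.15 ± 0.12). Around Mpo, 8 other genes were tested, 2 with a higher and 6 with a lower estimate (median −0.09). Its neighbour Epx, the eosinophil peroxidase, was at −0.00 ± 0.40 with 0.94 to 2.87 CPM over all libraries. Tspoap1 (0.52 ± 0.27) and Mir142 (0.46 ± 0.51) were higher; Mir142hg (−0.21 ± 0.20), Rnf43 (−0.19 ± 0.29), Mks1 (−0.14 ± 0.19), Supt4a (−0.03 ± 0.12) and 1110028F11Rik (−0.56 ± 0.46) were lower. Near Ctsg, the basophil protease gene Mcpt8 was at 0.51 ± 0.52, Mcpt4 at −0.29 ± 0.33 and Gm5801 at 0.21 ± 0.30.

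**Figure D5:**
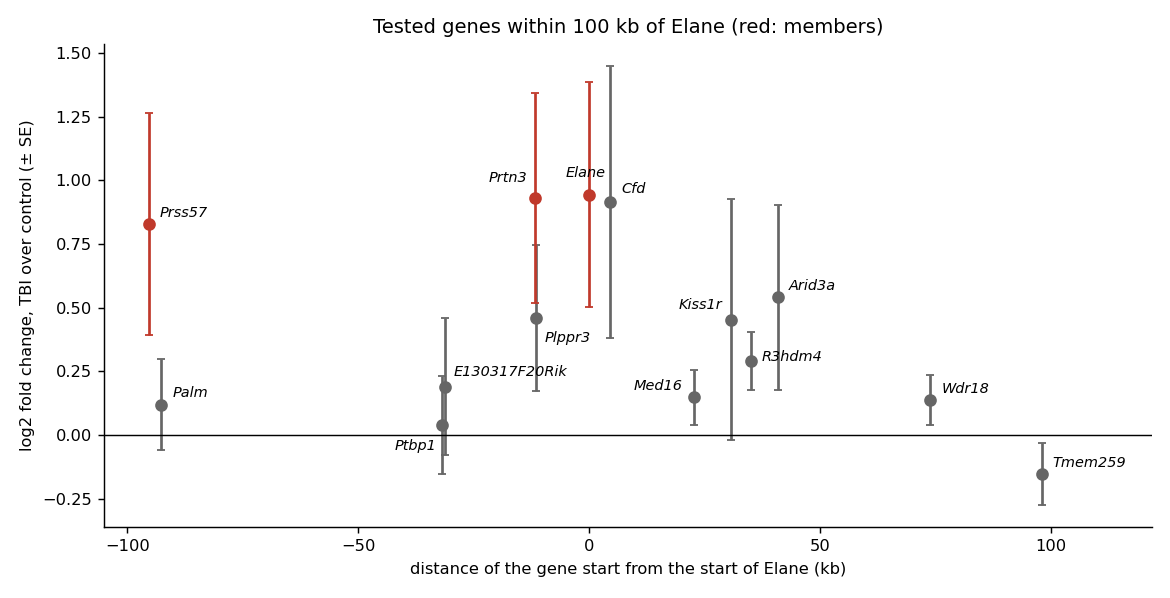
Each point is a tested gene, placed on the x axis by the distance of its start from that of Elane in kb and on the y axis by its log2 fold change of TBI over control, with SE bars; red marks members. Elane, Prtn3 and Prss57 sit between 0.83 and 0.94, and of the other genes Cfd alone is as high.

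The genes whose library profile lay nearest to the members' mean were ranked by root-mean-square distance of centred log2 CPM over 7 libraries, among 13956 protein-coding genes. The nearest were Gapt (0.105), Cebpe (0.110), the myeloid hexokinase Hk3 (0.113), Gsdme (0.129), Rab44 (0.143), Atp8b4 (0.143), Pglyrp1 (0.143), Gfi1 (0.147), the cathelicidin gene Camp (0.148) and S100a9 (0.155), all as distances in log2 units. The members themselves lay 0.0517 (Ctsg) to 0.203 (Fcnb) from that mean, which includes them. Hk3 had 130.2, 98.0, 31.6 and 77.3 CPM in TBI 1 to 4, against 60.0, 39.1 and 40.7 CPM in controls. The log2 fold changes of these 10 genes ran from 0.71 (Rab44) to 1.04 (S100a9), and none had an unadjusted p under 0.05 in edgeR. Values near those of the members follow from choosing these genes by profile over the same libraries.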

How the data were processed

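Femur RNA was sequenced in 7 libraries. The authors deposited raw read counts per Ensembl gene and a table of normalized log2 values for 18549 genes; the log2 unit is judged from the values. Libraries came from crushed bone and a strand-preserving mRNA kit, per the labels' protocols; STAR, DESeq and GRCm38 are named in the submitters' processing notes. The sources used here name no counting tool and no strand setting. GENCODE M21 matched 49412 of 49671 identifiers.

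Counts were filtered with filterByExpr (17144 genes), scaled by TMM and tested with edgeR 4.0.16 (quasi-likelihood F-test, R 4.3.3), TBI over control, with Benjamini-Hochberg adjustment over all genes and a threshold of 0.05. SE comes from the estimate and its F statistic, and 95% intervals from the test's degrees of freedom. List means used log2 CPM with a prior count of 2. DESeq2 1.42.0 and limma 3.58.1 were alternatives. The procedure was checked on simulated counts. No pair of libraries within a group matched within counting noise (chi-square per degree of freedom 29.7 or more). No batch is named.

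The 7 members and the context lists were chosen with earlier results of these data known. Named genes are the members, the 3 genes of a list with the smallest p, neighbours at least partly within 100 kb of Elane, Mpo or Ctsg, and the 10 nearest profiles. Chosen after their values were seen are Calr, Canx, Mmp9, Myb, Csf3r, Kit, Procr, Csf1r, Bpi, Epx, Fcna, Col1a1, Ptprc, Plppr3, Fstl3 and Gm11505.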

Additional observations from a re-analysis of the deposited data

How the results depend on the processing

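The 7 member log2 fold changes stayed above 0 and short of the adjusted threshold under 17 of 17 alternatives (119 of 119 values): other scalings, filters and tools, the replicate block, 2 covariates and each library left out. The median of the 7, 0.93 in the main fit, was 0.89 with upper quartile scaling, 0.77 in limma-voom, 1.02 with quality weights and 0.34 with the pan-leukocyte covariate. With each library left out it ran from 0.64 (without TBI 1) to 1.22 (without TBI 3). Over all genes, 0 passed in edgeR (1259 at an unadjusted p under 0.05), also at a threshold of 0.1 and without any 1 library, against 102 in DESeq2. The members minus late neutrophil difference, 0.07, ran from −0.03 (without TBI 2) to 0.14 (without TBI 4).

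Same-numbered libraries did not deviate together in every pair (correlations of deviations 0.55, −0.03 and 0.32). With so few libraries, whose deviations within a group depend on each other, this cannot decide whether the numbers mark pairs. With the replicate block, in which TBI 4 has no partner and drops out of the contrast, the member median was 0.81, 6 of 7 had an unadjusted p under 0.05 (11.1% of all genes), and 0 genes passed. Control 2 correlated best with TBI 3 (0.18) and control 3 with TBI 4 (0.39), neither with its own number. Upper quartile scaling moved the share of genes with a higher estimate from 54.4% to 47.5%. The spread between libraries, more than counting error, limits all 7 members.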

Other observations

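Relatives of the members by sequence family did not move as a block. Of 17 tested relatives, 11 had a higher and 6 a lower estimate (median 0.41, log2), and none passed the adjusted threshold in edgeR. Among Ms4a genes, which encode membrane proteins of blood cells, Ms4a6d was at 1.10 ± 0.37 (SE), Ms4a4a at 0.95 ± 0.33 and Ms4a6b at 1.03 ± 0.42, each with an unadjusted p under 0.05, while Ms4a1, the B cell gene for CD20, was at −0.82 ± 0.46. Ms4a6d measured 14.2, 8.56, 4.99 and 5.38 CPM in TBI 1 to 4, against 4.11, 3.72 and 3.81 CPM in controls, so here TBI 3 lay above all controls, unlike for Ms4a3. Fcna, which encodes the macrophage ficolin related to Fcnb, was at −0.19 ± 0.32, with 5.21 to 10.4 CPM in TBI libraries and 5.63 to 12.4 CPM in controls.

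Markers of other tissues in the femur differed in other orders of libraries. Erythroid genes had a median log2 fold change of −0.67 (9 of 9 lower; Hba-a2 at −0.93 ± 0.22, Hbb-bt at −0.88 ± 0.22, Alas2 at −0.67 ± 0.20), and near-identical globin copies can share reads. Bone genes had a median of −0.77 (8 of 8 lower; Alpl at −0.66 ± 0.14, Sp7 at −0.79 ± 0.17, Bglap at −0.97 ± 0.22), and B cell genes −0.71 (8 of 8 lower; Vpreb3 at −1.04 ± 0.53, Pax5 at −0.68 ± 0.35). Muscle genes had a median of 0.78 (8 of 8 higher; Ckm at 0.89 ± 0.65, Mylpf at 0.81 ± 0.59, Tnnt3 at 0.77 ± 0.62). None of these genes passed the adjusted threshold in edgeR. An unadjusted p under 0.05 in edgeR was reached by 7 of 8 bone genes and 5 of 9 erythroid genes, all lower. That held for 0 of 8 B cell genes, 0 of 8 muscle genes and 7.34% of all genes. B cell genes shared with the members a low value in TBI 3, where their list mean was 2.33 log2 CPM, against 3.58 to 4.15 in the other TBI libraries and 3.93 to 4.63 in controls. The part of erythroid, bone and B cells in the member values was not tested, and the fit that adjusts for muscle genes gave a member median of 1.19.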
